A study of Mus musculus with 5 samples.

Results

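The T cells described here are 269 cells, of 23797 kept cells in all, from injured mouse kidneys. They are the cells that the authors' deposited table labels as immune and places in cluster 10 and that also held 2 or more unique molecular identifiers (UMIs, counts of single captured mRNA molecules) summed over Cd3d, Cd3e and Cd3g. Cluster 10 held 334 cells, so 65 of its cells fell outside the rule. The cells were chosen by measured RNA levels, the clustering of all genes and the Cd3 UMIs. Their Cd3 values, and differences in level between these cells and other cells, are therefore given as description with no test; tests compare the times, or the size of the time effect between kinds of cell.

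T cells recognise antigen through a receptor of variable chains, alpha and beta or gamma and delta, which signals through the CD3 chains encoded by Cd3d, Cd3e, Cd3g and Cd247. Cells with the coreceptor Cd4 read peptides on class II molecules and mostly act by instructing other cells, those with Cd8 read peptides on class I molecules and can kill, and innate-like T cells, among them gamma-delta cells and cells with natural killer receptors, respond quickly without prior priming. In a kidney hurt by loss and return of blood flow, T cells arrive in small numbers beside neutrophils and macrophages, and both damaging and protective subsets are known.

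Kidneys of 5 mice were measured by droplet single-cell RNA sequencing after ischemia-reperfusion injury (IRI), a period of blocked blood flow followed by its return. Mice 1 and 2 were taken at 48 h and mice 3, 4 and 5 at day 10, and each mouse is 1 library and 1 replicate. All 5 carry the injury and no uninjured kidney was analysed here, so every difference given here compares 48 h with day 10. Strain, genotype, sex and age are not given in the sources used here. Polyadenylated RNA of whole kidney was captured at the 3' end, and the cells were not sorted, so T cells make up a small part of each library.

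The libraries held 3720 to 5912 kept cells, and any pair of libraries shared 3 to 10 cell barcodes. The T cells of a mouse summed to 209401, 167286, 817944, 180049 and 449148 UMIs in mice 1 to 5, with a median of 5037.5 to 6060 UMIs and a mean of 5511 to 7790 UMIs per cell. Cells over 15000 UMIs were 12.4% of the T cells of mouse 3, 4.35% and 2.78% of those of mice 2 and 5, and absent in mice 1 and 4. Mouse 1 stood apart by some tubule transcripts in its T cells: Umod, the urinary protein of the thick ascending limb, was at 712 CPM there (UMIs of a gene scaled to the same total in each mouse) and at 66.8 to 183 CPM in the other mice, and 1 cell held 105 of its 149 Umod UMIs. Mouse 4 stood apart by Kap, an androgen-regulated proximal tubule protein, at 16.7 CPM in its T cells against 341 to 786 CPM in the other mice.

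The 269 cells carried the T cell markers. Besides Cd3d (98.1% of cells with a UMI), Cd3e (85.9%) and Cd3g (99.3%), which chose them, a UMI of the receptor constant genes Trac and Trbc2 was found in 83.6% and 97.8% of cells. The kinase Lck was found in 88.5% of them, the adaptor Lat in 76.6% and the surface protein Thy1 in 74.0%. Outside cluster 10 no labelled group had 2 or more Cd3 UMIs in more than 0.299% of its cells. The B cell markers Cd79a and Ms4a1 were at 0 in all 5 mice. Abundant transcripts of other kidney cells were present: a UMI of Kap was found in 87.0% of T cells, of the macrophage transcript Apoe in 69.1% and of the myeloid lysozyme Lyz2 in 43.9%.

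Cells on either side of the threshold were few. In cluster 10, 62 cells had 0 Cd3 UMIs, 3 had 1, 4 had 2, 3 had 3 and 262 had 4 or more, and the median of the T cells was 14. The 4 cells with 2 Cd3 UMIs had a median of 1818 UMIs per cell, and 75% of them held Trac. The 62 cells with no Cd3 UMI looked different in some markers outside the rule: 80.6% held Ncr1, a natural killer receptor, 64.5% held the granule protease Gzma and 3.23% held Trac. Other T cell markers separated the 2 groups less: 66.1% of these cells held Lck, 46.8% Trbc2, 41.9% Thy1 and 24.2% Lat. The receptor constant gene Trbc1 was found in 72.6% of them, against 51.7% of the T cells. The distribution has 2 separate humps with almost nothing between them, so the cells near the threshold are a small part of the T cells.

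**Figure D1:**
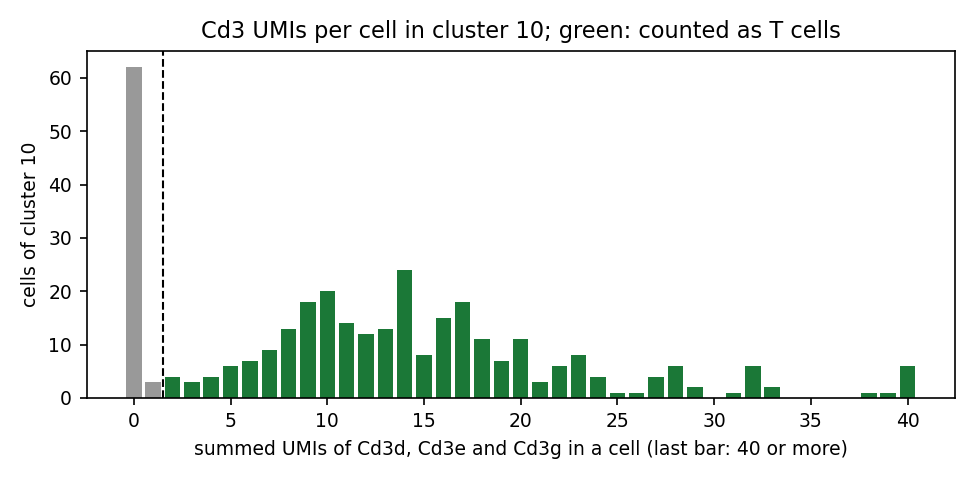
Cells of cluster 10 (vertical axis, number of cells) by their summed UMIs of Cd3d, Cd3e and Cd3g (horizontal axis, the last bar holding 40 or more); the dashed line, just below 2, is the threshold and green bars are the 269 T cells. The 62 cells at 0 stand apart from the T cells, whose median is 14, with 10 cells in all at 1, 2 or 3 UMIs.

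Mice 1 to 5 gave 38, 23, 105, 31 and 72 T cells. As a share of kept cells these were 0.776% (95% exact Clopper-Pearson interval 0.550 to 1.06), 0.618% (0.392 to 0.926), 1.78% (1.45 to 2.15), 0.793% (0.539 to 1.12) and 1.34% (1.05 to 1.69). Intervals here cover counting error only. The lowest share at day 10, that of mouse 4, was just above the higher one at 48 h, so the groups touched without overlapping. The mean rose in value from 0.697% ± 0.112 (SD, n = 2) to 1.30% ± 0.493 (SD, n = 3). The difference did not pass (log2 fold change 0.91, SE 0.47, edgeR quasi-likelihood test on cell numbers with Benjamini-Hochberg adjustment over 22 cell groups, adjusted p = 0.143; exact two-sided permutation test over mice, p = 0.2, the smallest that 2 against 3 mice allow). With TMM factors over the cell groups the value was 1.28 and did pass (adjusted p = 0.0304), so this call depends on the scaling.

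Among immune cells no change of T cells was found in either direction. T cells were 4.07%, 1.93%, 4.72%, 1.80% and 3.48% of the immune cells of mice 1 to 5, and each group held a high and a low mouse. The log2 fold change was 0.18 (SE 0.55, edgeR quasi-likelihood test, adjusted p = 0.765 over 5 immune groups). Its direction turned when 1 mouse was left out: it was -0.28 without mouse 2 and -0.16 without mouse 3. The spread between mice of the same time, more than 2-fold in both groups, was larger than the difference between the times.

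**Figure D2:**
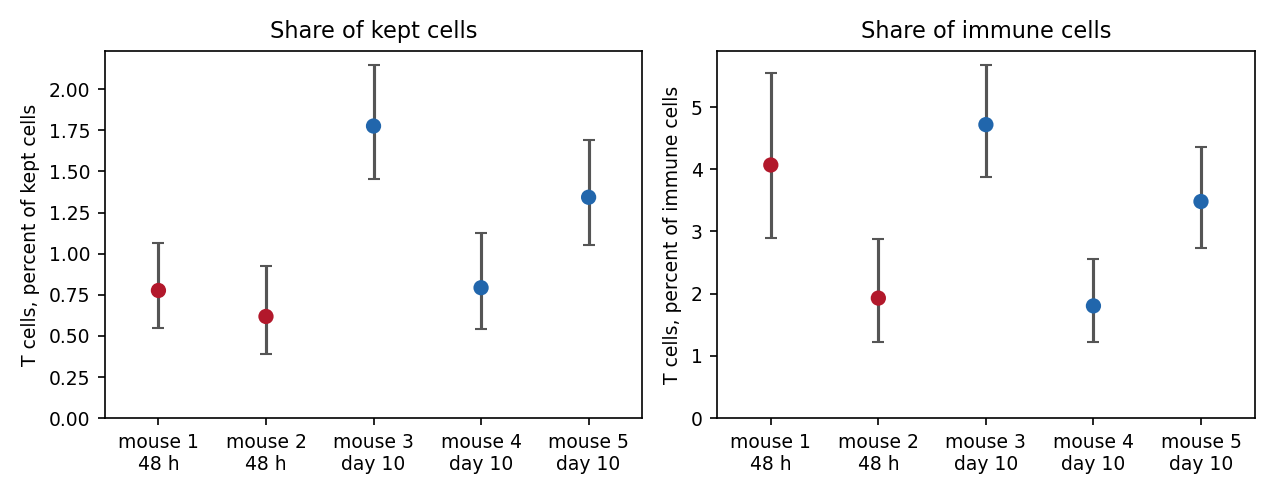
T cells as a percent of kept cells (left) and of immune cells (right) in each mouse (red, 48 h; blue, day 10), with 95% exact Clopper-Pearson intervals that cover counting error. On the left the day 10 mice span 0.793% to 1.78% and lie above both 48 h mice; on the right the groups overlap.

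Each T cell was placed in 1 of 5 classes by its own UMIs. Innate-like cells were those with 2 or more UMIs of Trdc, the delta constant gene (or 1 beside another gamma-delta gene), with 2 or more UMIs over a set of innate type 17 genes, among them Zbtb16, Il23r, Sox13, Blk and Cd163l1, or with 2 or more over natural killer receptors (Klrb1c, Ncr1, Klra4, Klra7, Klra8, Klre1). The others were split by UMIs of Cd4 and of Cd8a or Cd8b1. Of the 269 T cells, 42 (15.6%) were innate-like, 84 (31.2%) had Cd4 only, 67 (24.9%) had Cd8 only, 2 had both and 74 (27.5%) had neither. Just 2 of 269 cells in 1 mouse held both coreceptors outside the innate-like class, while a UMI of either was missing in more than 1 in 4 cells. The label "neither" here means only not detected at this depth. Cells that lack both coreceptors cannot be told apart from cells whose coreceptor RNA was missed.

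A Cd4 UMI was found in 32.7% of T cells (median 5452 UMIs), in 9.05% of the macrophage-rich cluster 0 (median 12404 UMIs) and in 0.0724% of the neutrophil-rich cluster 5 (median 3323 UMIs). For Cd8b1 the shares were 27.5%, 0.364% and 0.145%. The coreceptor shares of T cells thus stood above those of both clusters, and the Cd4 share of cluster 0, in far deeper cells, stayed below that of T cells. Cluster 0 is not taken here as lacking Cd4. Its Cd4 level was 11.3 CPM, against 0.189 CPM in cluster 5 and 0.422 CPM in endothelial cells. The part of free RNA in these shares was not tested.

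Cd4-only cells were 18.4%, 26.1%, 29.5%, 58.1% and 30.6% of the T cells of mice 1 to 5. Mouse 4 stood out with 18 of its 31 T cells in this class. Each of the 3 day 10 mice was above both 48 h mice, with a mean of 22.3% ± 5.42 (SD, n = 2) at 48 h and 39.4% ± 16.2 (SD, n = 3) at day 10. The log2 fold change of 0.68 (SE 0.43) did not pass in the edgeR quasi-likelihood test (adjusted p = 0.413), and the exact permutation p was 0.2. Thinned to 1500 UMIs per cell, which left out 3 cells at day 10 and none at 48 h, the means were 8.15% and 16.2%.

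Cd8-only cells were 23.7%, 17.4%, 24.8%, 12.9% and 33.3% of T cells, and the groups overlapped, with the highest and the lowest share both at day 10. The means were 20.5% ± 4.45 (SD, n = 2) and 23.7% ± 10.3 (SD, n = 3), with a log2 fold change of 0.28 (SE 0.45, edgeR quasi-likelihood test, adjusted p = 0.542). Thinned to 1500 UMIs they were 21.1% and 20.4%. The ratio of the 2 coreceptor classes varied among mice of 1 time as much as between the times: Cd4-only cells were 43.8% and 60% of both classes at 48 h, and 54.4%, 81.8% and 47.8% at day 10.

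**Figure D3:**
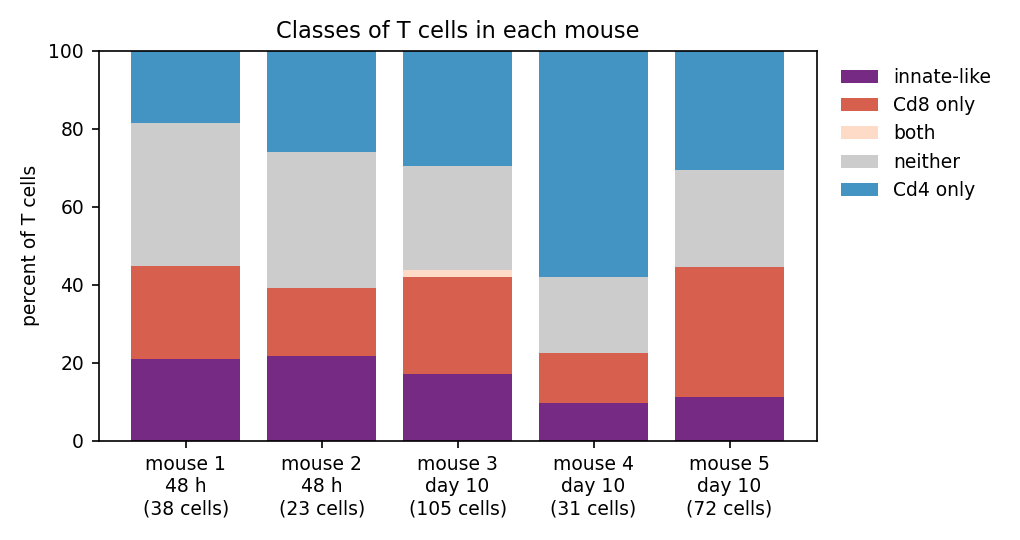
Classes of T cells in each mouse as percent of that mouse's T cells (vertical axis); the number of T cells is under each bar. Cd4-only cells (blue) take 58.1% in mouse 4 and 18.4% to 30.6% elsewhere, and innate-like cells (purple) take 21.1% and 21.7% at 48 h and 9.68% to 17.1% at day 10.

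Innate-like cells were 21.1%, 21.7%, 17.1%, 9.68% and 11.1% of T cells in mice 1 to 5. The 48 h mice were nearly equal and all 3 day 10 mice were below them. The log2 fold change was -0.61 (SE 0.51) and did not pass (edgeR quasi-likelihood test, adjusted p = 0.413; exact permutation p = 0.2). Thinned to 1500 UMIs the shares were 9.91% and 10.2% at 48 h and 11.3%, 6.04% and 4.56% at day 10, so mouse 3 was then highest and the groups overlapped. Cells with neither coreceptor were also lower at day 10 in value, at 36.8% and 34.8% against 26.7%, 19.4% and 25%, and did not pass (log2 fold change -0.53, SE 0.39, edgeR quasi-likelihood adjusted p = 0.413). Thinned, they were 61.8% and 59.6% against 53.9%, 61.8% and 52.3%, which overlapped.

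Inside the innate-like class, 17 cells met the gamma-delta rule, 27 the natural killer receptor rule and 9 the type 17 rule, and 11 met more than 1 of them. Gamma-delta cells numbered 3, 2, 9, 2 and 1 in mice 1 to 5. A Trdc UMI occurred in 6.69% of T cells and in 0.0475% of cluster 0, but in 20% of the rest of cluster 10. Of the 17 gamma-delta cells, 4 also held a UMI of Trac, the alpha constant gene. Cells with natural killer receptors numbered 5, 3, 12, 3 and 4, and their share was 13.2% and 13.0% at 48 h and 11.4%, 9.68% and 5.56% at day 10. Type 17 cells numbered 2, 0, 3, 0 and 4, and the cytokine Il17a was counted in T cells of mice 3 and 5 only, with 3 and 6 UMIs. At these numbers no difference between the times could be resolved for any of the 3.

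Foxp3, the transcription factor of regulatory T cells, had a UMI in 13 T cells: 1, 0, 4, 0 and 8 in mice 1 to 5. Mouse 5 held most of them, and the 0 of 31 T cells in mouse 4 allows a share of cells with a UMI of up to 9.68% and the 0 of 23 in mouse 2 of up to 13.0% (3 cells of the total). These limits are not limits on cells that express Foxp3 below detection. Of the 13 cells, 3 held a Cd4 UMI. A Foxp3 UMI was found in 4.83% of T cells and in 0.0949% of cluster 0. The shares by mouse, 2.63% and 0% at 48 h and 3.81%, 0% and 11.1% at day 10, overlapped.

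Cycling cells, those with 2 or more UMIs over Mki67, Top2a, Birc5, Cdk1, Ccna2, Ccnb1, Ccnb2, Pclaf and Rrm2, were 2 of 38, 3 of 23, 24 of 105, 4 of 31 and 8 of 72 T cells. That is 5.26% and 13.0% at 48 h and 22.9%, 12.9% and 11.1% at day 10, with mouse 3 highest and the groups overlapping (exact permutation p = 0.6). They were deeper than other T cells, with a median of 8935 against 5204 UMIs, and 15 of the 16 T cells over 15000 UMIs were among them. Cycling cells came from every class: 17 had Cd4 only, 10 Cd8 only, 8 neither, 5 were innate-like and 1 had both.

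The coreceptor classes differed in genes that did not define them, given as levels per mouse with no test. Nkg7, a cytotoxic granule protein, was higher in Cd8-only cells of all 5 mice, with 952 to 2046 CPM against 163 to 753 CPM in Cd4-only cells. Ccl5, a chemokine of effector cells, was higher in Cd8-only cells in 4 of 5 mice, the exception being mouse 4 with 2998 against 3527 CPM. Klrd1, a natural killer receptor chain, was higher there in all 5 mice, at 95.2 to 487 CPM against 0 to 47.7 CPM.

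Genes of helper cells went the other way. Cd40lg, the ligand by which helper cells stimulate B cells and macrophages, was higher in Cd4-only cells of all 5 mice, at 39.97 to 133 CPM against 0 to 15.2 CPM. The costimulatory receptor Icos was higher there in all 5 mice as well, at 59.96 to 215 CPM against 0 to 47.6 CPM. Cd44, an adhesion receptor of antigen-experienced cells, was higher in Cd4-only cells in 5 of 5 mice. The chemokine receptor Cxcr3 did not separate them, being higher in Cd8-only cells in 2 mice and in Cd4-only cells in 3. In mice 2 and 4 the Cd8-only class was 4 cells each, so the values of both carry little weight.

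Gene expression was compared between the times on UMIs summed over the T cells of each mouse. Of 3026 genes tested, 4 passed (0.132%), 1 higher (0.033%) and 3 lower (0.0991%) at day 10. Cd74 rose, and Satb1 and Gzma fell, each with an adjusted p of 0.0488 (edgeR quasi-likelihood, Benjamini-Hochberg over all genes tested). An unadjusted p under 0.05 was found for 197 genes (6.51%), and the CPM of the groups did not overlap for 707 (23.4%), of which 258 were lower at day 10 (8.53%). DESeq2 called 2 genes, Cd74 and Ly6c2, and limma called 0. These 3 calls lie just under the threshold of 0.05 and each was lost when mouse 1, 3 or 5 was left out. Over all alternatives the largest adjusted p was 0.369 for Cd74, 0.903 for Satb1 and 0.995 for Gzma.

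Satb1, a chromatin organiser of developing and naive T cells, was at 172 and 149 CPM at 48 h and at 58.7, 55.5 and 53.4 CPM at day 10. Mice of 1 time were close to each other and the groups did not overlap. The log2 fold change was -1.58 (SE 0.26). A Satb1 UMI was found in 47.4% and 47.8% of T cells against 27.6%, 22.6% and 20.8%, and thinned to 1500 UMIs in 22.9% and 16.4% against 10.8%, 6.796% and 7.60%. Without the cycling cells the fold of Satb1 was -1.03 (adjusted p = 0.223, edgeR quasi-likelihood test), more than 1.5 times smaller. Mean levels of Satb1 were 2.14 CPM at 48 h and 2.59 CPM at day 10 in cluster 0, and 69.0 and 63.0 CPM in the rest of cluster 10. The latter rest on 34 UMIs, and its mice ran from 55.4 to 82.6 CPM at 48 h and from 0 to 151 CPM at day 10. In cluster 5 the mean was lower at day 10, at 45.2 CPM (39.1 to 51.3) against 32.2 CPM (21.4 to 49.6), and the groups overlapped.

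**Figure D4:**
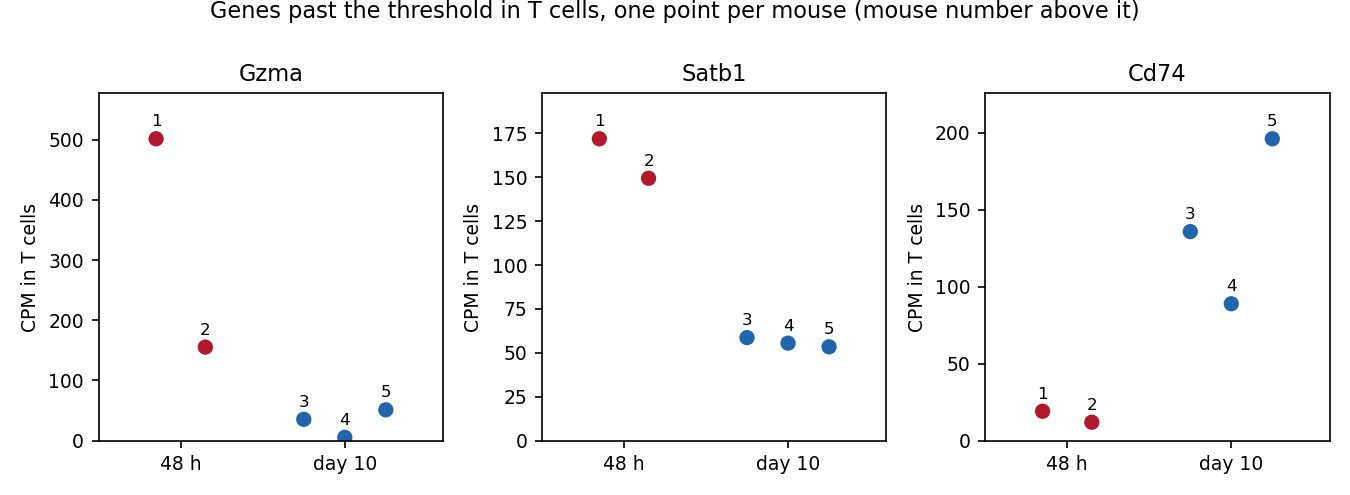
CPM in T cells (vertical axis, each panel from 0) of Gzma, Satb1 and Cd74, 1 point per mouse (red, 48 h; blue, day 10). In each panel the 48 h mice and the day 10 mice are apart, with Gzma spread most at 48 h, from 155 to 501 CPM.

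Satb1 belongs to a group of genes of naive and memory T cells, most of which were lower at day 10 in value. Of the 9 members reported here, all tested, 1 passed, and 8 had a fold below 0 (49.1% of all genes tested did). The CPM did not overlap for 6 of the 9, against 23.4% of all genes. The median log2 fold change was -1.27, against 0.01 over all genes. Summed over the 9 genes the T cells held 1633 and 1500 CPM at 48 h and 701, 1289 and 877 CPM at day 10, so mouse 4 lay closest to the 48 h mice.

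The members that did not pass mostly shared the direction in value. Lef1, a transcription factor of naive T cells, was at 186 and 144 CPM against 57.5, 94.4 and 73.5 CPM (log2 fold change -1.30, SE 0.30, edgeR quasi-likelihood adjusted p = 0.387). Klf2, which keeps naive cells in circulation by driving exit and homing receptors such as S1pr1, was at 516 and 424 CPM against 91.7, 400 and 171 CPM, mouse 4 again beside the 48 h mice (-1.27, SE 0.47, adjusted p = 0.658). Without mouse 4 the fold of Klf2 was -1.96 and passed (edgeR quasi-likelihood adjusted p = 0.0259), as it did without cells of 5 or more macrophage UMIs (-1.87, adjusted p = 0.0156). The latter setting took out 26 of the 31 T cells of mouse 4, so the 2 settings are not independent. Both removed values of the day 10 mouse nearest the 48 h mice, so neither adds support to a fall.

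The lymph node homing receptor Ccr7 was at 71.6 and 59.8 CPM against 8.56, 49.99 and 15.6 CPM (log2 fold change -1.96, SE 0.68, adjusted p = 0.617). Dapl1, a gene of naive cells, was at 86.0 and 95.6 CPM against 40.3, 16.7 and 13.4 CPM (-1.80, SE 0.47, adjusted p = 0.403). Tcf7, the partner of Lef1, was at 138 and 167 CPM against 95.4, 77.8 and 129 CPM (-0.62, SE 0.28, adjusted p = 0.754). Il7r, the receptor for the survival cytokine IL-7, was the exception, with a fold of 0.05 (SE 0.30, adjusted p = 1.00) and CPM that overlapped. None of these 4 passed the edgeR quasi-likelihood test.

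**Figure D5:**
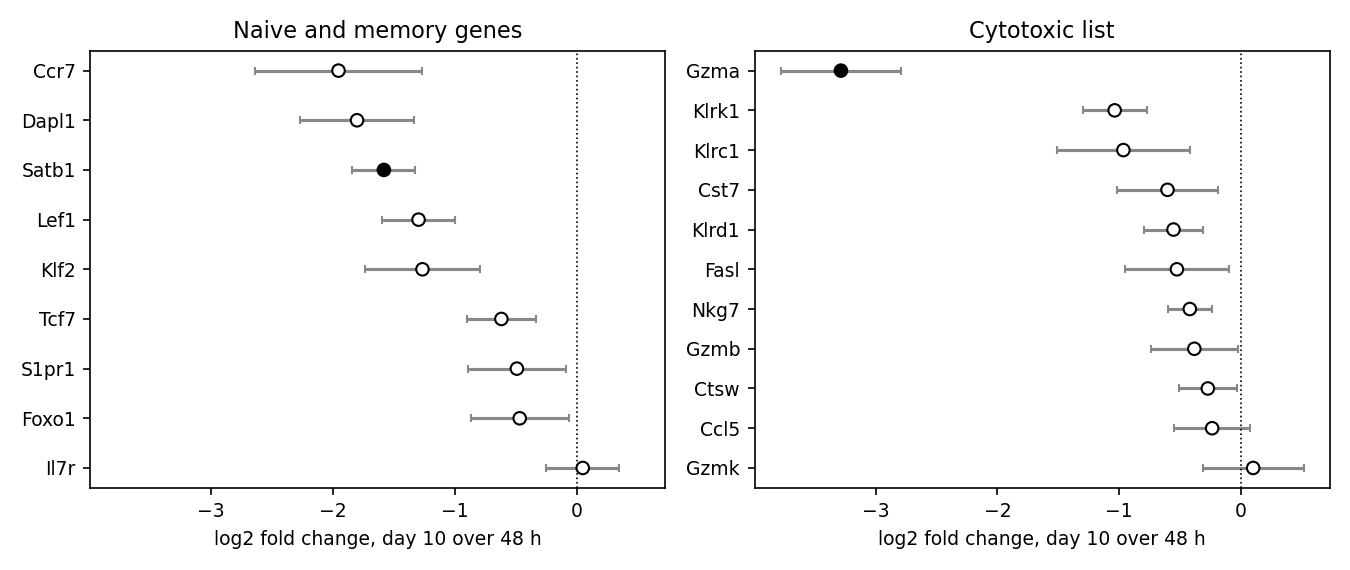
Log2 fold change of day 10 over 48 h (horizontal axis) with its SE for the 9 naive and memory genes (left) and the tested genes of the cytotoxic list (right); filled points passed the edgeR quasi-likelihood test. On the left 8 of 9 genes and on the right 10 of 11 lie below 0, with Satb1 and Gzma past the threshold.

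Gzma, a granule protease of killer cells, was at 501 and 155 CPM at 48 h and at 35.5, 5.55 and 51.2 CPM at day 10. The groups did not overlap, but the counts came from few cells: 105, 26, 29, 1 and 23 UMIs in 4, 2, 2, 1 and 5 T cells, with 63 of the 105 UMIs of mouse 1 in 1 cell. The log2 fold change was -3.28 (SE 0.49). All Gzma UMIs lay in innate-like and Cd8-only cells. Innate-like cells held 90 and 26 of them at 48 h and 0, 1 and 0 at day 10, whereas Cd8-only cells held 15 and 0 at 48 h and 29, 0 and 23 at day 10. Without innate-like cells the fold was -0.24 (adjusted p = 0.995, edgeR quasi-likelihood test), so the call rests on 4 innate-like cells at 48 h.

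The sum of the other natural killer markers did not separate the times. Without Gzma, the natural killer list held 10 genes, of which 8 were detected and Klra4 and Klra8 were at 0, and it summed to 330 and 173 CPM in the T cells at 48 h and to 289, 311 and 254 CPM at day 10, which overlapped. Of these genes 3 were tested and 0 passed. The CPM did not overlap for 2 (23.4% of all genes), and 2 had an unadjusted p under 0.05 (6.51% of all genes). They moved in opposite directions. Klre1 was at 62.1 and 53.8 CPM against 31.8, 16.7 and 15.6 CPM (log2 fold change -1.36, SE 0.51). Fcer1g was at 47.8 and 5.98 CPM against 79.5, 183 and 62.3 CPM (1.67, SE 0.68). In the cells of cluster 10 outside the T cells Gzma was at 8280 and 12364 CPM at 48 h and at 2995, 2348 and 1861 CPM at day 10. The part of RNA from those cells in the Gzma result was not tested.

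Most other cytotoxic genes had folds below 0 without passing. Of 16 genes in that list, 11 were tested, 1 passed (Gzma, against 0.132% of all genes) and 10 had a fold below 0 (against 49.1%), with a median of -0.53. Its sums overlapped, at 6686 and 3826 CPM against 3600, 4554 and 4166 CPM. The activating receptor Klrk1 was at 210 and 138 CPM against 91.7, 77.8 and 93.5 CPM (log2 fold change -1.04, SE 0.26, edgeR quasi-likelihood adjusted p = 0.403). Nkg7 was at 1074 and 1010 CPM against 879, 828 and 719 CPM (-0.42, SE 0.18, adjusted p = 0.752), again with no overlap. Gzmb, the granule protease that cleaves caspases, overlapped at 81.2 and 83.7 against 64.8, 94.4 and 51.2 CPM (-0.38, SE 0.35, adjusted p = 0.926), and its fold turned to 1.72 without innate-like cells and to 0.11 with equal cells and UMIs per mouse. Prf1, the pore-forming protein, was at 38.2 and 41.8 CPM against 28.1, 11.1 and 26.7 CPM and was below the count filter. Ly6c2, a surface antigen of memory Cd8 cells and monocytes, was at 1003 and 622 CPM against 444, 233 and 205 CPM (-1.50, SE 0.30, adjusted p = 0.202), and DESeq2 called it (adjusted p = 0.0393).

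Cd74, the invariant chain that accompanies class II molecules, was at 19.1 and 11.96 CPM in T cells at 48 h and at 136, 88.9 and 196 CPM at day 10. Every day 10 mouse was above both 48 h mice, with a log2 fold change of 3.11 (SE 0.51). A Cd74 UMI was found in 10.5% and 8.70% of T cells at 48 h and in 46.7%, 35.5% and 54.2% at day 10, with at most 11 UMIs in a cell. Thinned to 1500 UMIs these shares were 2.65% and 1.36% against 17.3%, 13.3% and 21.3%. The class II gene H2-Aa had no UMI in T cells at 48 h and 24, 4 and 18 UMIs at day 10.

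Mean Cd74 was also higher at day 10 in some other cells of the same libraries. In cluster 0 it was at 2785 and 1320 CPM at 48 h and at 11167, 2294 and 11575 CPM at day 10, which overlapped. In S1 proximal tubule cells, which are not professional antigen-presenting cells, it was at 41.1 and 21.7 CPM against 298, 106 and 320 CPM. In the rest of cluster 10 the means were close, at 154 CPM (37.0 to 271) and 171 CPM (0 to 294), and the groups overlapped. Of the 8 genes of the dendritic cell list 6 were detected in T cells, with Flt3 and Clec9a at 0, and their sum, mostly Cd74, was 11.96 to 23.9 CPM at 48 h and 128 to 280 CPM at day 10. The sum of the macrophage markers moved with it too: 11 of 11 were detected, summing to 215 and 263 CPM at 48 h and to 708 to 2094 CPM at day 10, with C1qa, Cd68, Csf1r and Adgre1 at 0 at 48 h. Not every member moved. Of 5 tested 0 passed, 4 had a fold above 0 (50.9% of all genes did) and the CPM did not overlap for 3 (23.4% of all genes). Ctss overlapped at 81.2 and 108 CPM against 96.6, 122 and 134 CPM. Tyrobp overlapped at 52.5 and 47.8 CPM against 51.3, 22.2 and 62.3 CPM. In cluster 0 that list summed to 69219 CPM. T cells with 5 or more macrophage UMIs were 5.26% and 4.35% at 48 h and 52.4%, 83.9% and 52.8% at day 10. Without those cells the fold of Cd74 was 3.03 (edgeR quasi-likelihood adjusted p = 0.00768), as large as with them. The part of macrophage RNA in the remaining cells was not tested.

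The lipid carrier Apoe, the most abundant of those macrophage transcripts, had the largest fold among the genes given here that did not pass. It was at 52.5 and 17.9 CPM in T cells at 48 h and at 287, 1244 and 341 CPM at day 10 (log2 fold change 3.98, SE 0.80, edgeR quasi-likelihood adjusted p = 0.202). Mouse 4 was highest, and 1 of its cells held 65 of its 224 Apoe UMIs. In cluster 0 Apoe was at 3039 and 2260 CPM against 38364, 42564 and 37091 CPM. The time effect on Apoe did not differ between T cells and cluster 0 in the interaction test (difference -0.15 on the log2 scale, SE 0.32, adjusted p = 0.905). That p does not show that the changes were equal. Lyz2, the lysozyme of myeloid cells, was at 19.1 and 29.9 CPM in T cells against 102, 261 and 120 CPM (2.53, SE 0.60, adjusted p = 0.403).

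Genes of cell division were higher in value at day 10 without a call. Of 20 genes in that list 15 were tested, all 15 had a fold above 0 (50.9% of all genes did) and 0 passed. An unadjusted p under 0.05 was found for 2 (6.51% of all genes), and the CPM overlapped for each of the 15. The median was 0.56. The list summed to 1753 and 3748 CPM at 48 h and to 7674, 1861 and 3772 CPM at day 10, so mouse 3 was highest, as in its share of cycling cells, and mice 1 and 4 were lowest. Mki67, a marker of dividing cells, had 0 UMIs in T cells of mice 1 and 4. Slbp, which binds histone mRNA in S phase, was at 52.5 and 35.9 CPM against 174, 99.97 and 140 CPM (1.61, SE 0.34, edgeR quasi-likelihood adjusted p = 0.249), with no overlap.

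Regulatory T cell genes did not pass. All 5 tested genes of that list had a fold above 0 (50.9% of all genes did), 0 passed and 2 had an unadjusted p under 0.05 (6.51% of all genes did). The sums of the list overlapped, at 716 and 359 CPM at 48 h and 680, 944 and 1423 CPM at day 10. Tnfrsf4, the costimulatory receptor OX40, was at 62.1 and 0 CPM against 86.8, 289 and 307 CPM (log2 fold change 2.63, SE 0.81, edgeR quasi-likelihood adjusted p = 0.548). Of 12 tissue residency genes 7 were tested, 6 had a fold above 0 (50.9% of all genes did) and 0 passed. Rgs1, a brake on chemokine receptor signalling, was at 66.9 and 71.7 CPM against 186, 139 and 109 CPM (1.02, SE 0.32, adjusted p = 0.556). Cd44 was at 47.8 and 77.7 CPM against 97.8, 128 and 107 CPM (0.74, SE 0.34, adjusted p = 0.754). S100a4, a calcium-binding protein of motile and memory cells, was at 401 and 484 CPM against 696, 939 and 1245 CPM (1.07, SE 0.28, adjusted p = 0.403). It passed without the cycling cells (1.32, adjusted p = 0.00768).

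No T cell identity gene passed. Leaving out Cd3d, Cd3e and Cd3g, which chose the cells, 18 genes of that list were tested and 0 passed. An unadjusted p under 0.05 was found for 1 (6.51% of all genes), and the CPM did not overlap for 2 (23.4% of all genes). The median was 0.07, with 10 folds above 0 (50.9% of all genes did) and 8 below. Summed, the 18 genes were at 5444 and 4824 CPM at 48 h and at 5013, 5115 and 5308 CPM at day 10, which overlapped. Cd4 itself was at 47.8 and 89.7 CPM against 80.7, 144 and 107 CPM (log2 fold change 0.57, SE 0.40, edgeR quasi-likelihood adjusted p = 0.874), and Cd8b1 at 272 and 233 CPM against 265, 72.2 and 276 CPM, where the low value is that of mouse 4.

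Early response genes did not pass either. Of 16 immediate early genes 6 were tested, 4 had a fold below 0 (49.1% of all genes did) and 0 passed. An unadjusted p under 0.05 was found for 2 of them (6.51% of all genes). Jund, an AP-1 subunit, was at 554 and 556 CPM against 334, 300 and 448 CPM (log2 fold change -0.67, SE 0.22, edgeR quasi-likelihood adjusted p = 0.612), with no overlap. Cd69, an early activation and retention marker, overlapped at 105 and 65.8 CPM against 77.0, 117 and 75.7 CPM.

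Signalling genes showed no call either. Of 7 genes of type 1 helper cells 3 were tested, of 6 genes of type 2 helper cells 1 and of 7 genes of type 17 helper cells 1, and 0 passed. Of 23 cytokines and related ligands 5 were tested and 0 passed, and Il10, Il13, Il17f and Il22 had no UMI in any T cell. Ltb, the lymphotoxin chain, was detected at like levels in every mouse, 1114 to 1450 CPM. Ifng, the main cytokine of type 1 helper and killer cells, was at 11.1 to 33.3 CPM and below the filter. Of 12 chemokine receptors 5 were tested and 0 passed. Cxcr6, a receptor of tissue-dwelling T cells, was at 282 and 221 CPM against 384, 239 and 316 CPM, and Cxcr3 at 158 and 144 CPM against 187, 161 and 171 CPM. Of 18 interferon response genes 11 were tested, 9 had a fold below 0 (49.1% of all genes did) and 0 passed, with a median of -0.33. The CPM did not overlap for 3 (23.4% of all genes), and 2 had an unadjusted p under 0.05 (6.51% of all genes). The sums, 2535 to 2970 CPM at 48 h and 1933 to 2382 CPM at day 10, did not overlap. None of the 11 checkpoint genes was abundant enough to be tested.

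The time effect in T cells was then set against that in the other 65 cells of cluster 10, with mouse as a block. Of 3093 genes 1 passed (0.0323%), Gzmc, a granule protease, and 191 had an unadjusted p under 0.05. In T cells Gzmc had 0 and 0 UMIs at 48 h and 21, 287 and 0 at day 10, of which 283 lay in 1 cell of mouse 4 and 20 in 1 cell of mouse 3. In the other cells it had 75 and 0 UMIs at 48 h and 0, 0 and 2 at day 10. The call thus rests on a few cells, and it was lost without mouse 4. For Gzma the difference was -1.31 (SE 0.52, edgeR quasi-likelihood adjusted p = 0.545) and for Cd74 2.70 (SE 0.87, adjusted p = 0.311).

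Against cluster 0, the most abundant immune cells, 569 of 12358 genes differed in their time effect (4.6%), 403 with a higher and 166 with a lower effect in T cells, and 1898 had an unadjusted p under 0.05. That fit gave all genes of like abundance the same spread, so its small p-values rest on the genes together and not on 5 mice per gene. The count fell to 101 without mouse 1 and to 225 without mouse 3. Of the 126 named genes tested here 41 passed, and 20 of those had a mean of 50 CPM or more, at 48 h or day 10, in both kinds of cell.

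S100a4 had the largest of these differences. It rose in value in T cells, as given above, and was at 1630 and 2369 CPM in cluster 0 at 48 h and at 274, 194 and 345 CPM at day 10 (difference 3.93, SE 0.23, edgeR quasi-likelihood adjusted p = 6.95e-60). Slbp was at 99.1 and 79.9 CPM in cluster 0 against 50.8, 34.6 and 41.5 CPM (difference 2.69, SE 0.39, adjusted p = 3.17e-09). Cd44 was at 235 and 304 CPM there against 101, 97.1 and 87.2 CPM (2.26, SE 0.36, adjusted p = 9.63e-08). In each of these 3 genes the groups of cluster 0 did not overlap and its level was lower at day 10. Ly6c2 was lower at day 10 in value in both kinds of cell, at 171 and 179 CPM against 11.6, 2.46 and 13.9 CPM in cluster 0 (difference 2.83, SE 0.26, adjusted p = 9.17e-24), so the gap between the times was smaller in T cells. S100a4, Slbp and Ly6c2 were named for a small unadjusted p of the time effect in these same T cells. That effect enters the interaction test, so their p-values here are no separate support.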

How the data were processed

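Cells came from 5 mouse kidneys (2 at 48 h, 3 at day 10), captured with the 10x Genomics 3' v3.1 kit, per the labels. The authors deposited raw UMI counts per gene and barcode for 32285 genes in each library, and a table of kept cells with a label, a cluster, UMI and gene counts, the percent of mitochondrial UMIs and embedding scores; the deposited scores were not used. Cell Ranger 6.0.2, Seurat 4.0.5 and mm10 are named in the submitters' processing notes, and Cell Ranger 6.0.0 in the headers of the deposited matrices. Totals of the authors' table equalled the matrices for every kept cell. No step against doublets or free RNA is stated in the sources used here and no doublet caller was run; T cells with 5 or more macrophage UMIs or over 15000 UMIs were left out as alternatives.

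Members, lists and tests were chosen with earlier results of these data known. UMIs of T cells were summed per mouse and tested with edgeR 4.0.16 in R 4.3.3 (filterByExpr, TMM, quasi-likelihood F test, Benjamini-Hochberg over 3026 genes, threshold 0.05); SEs were derived from each log2 fold change and its F statistic. CPM are of raw sums. Cell numbers were tested with the same model on an offset of total cells. Interactions used mouse as a block. Class shares were also computed with each cell thinned to 1500 UMIs. Alternatives were DESeq2 1.42.0, limma 3.58.1, DESeq2 size factors, no filter on low counts, equal cells and UMIs (23 cells, 128175 UMIs), Cd3 thresholds of 1 and 3, and leaving out each mouse. Leaving out cycling, very deep or innate-like cells was chosen after seeing the data. The edgeR test was checked on simulated counts. Named genes were the called ones with groups that did not overlap, up to 6 next by p in each direction, genes of the class rules, up to 4 of each list by level, and Gzma, Gzmb, Prf1 and Apoe. Ccr7, Dapl1, Foxp3, Gzmc, Icos, Ifng, Mki67, Spp1 and markers named at 0 fell outside this rule and were named after their values were seen. Some genes, among them 1 that passed, are not reported here.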

Additional observations from a re-analysis of the deposited data

Results flagged for a closer look

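The time effect differed between T cells and the rest of cluster 10 for 1 gene, Gzmc. Its fitted difference was 14.33 on the log2 scale (edgeR quasi-likelihood adjusted p = 4.52e-05); T cells had no Gzmc UMI at 48 h, so this value depends on the prior count and is no measure of size.

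Between T cells and cluster 0 the interaction test (edgeR quasi-likelihood, Benjamini-Hochberg) passed for 41 of 126 named genes (569 of all 12358, or 4.6%). Many named genes were picked by their level or time effect in T cells, so these counts are description. The 20 of these with a mean of 50 CPM or more, at 48 h or day 10, in both kinds of cell are given here. Of the 20, 19 had a higher time effect in T cells, as did 403 of all 569 called genes. Mean CPM were higher at day 10 in T cells and lower in cluster 0 for 14 of the 20. No such share over all genes was computed. Genes of migration and the cell surface differed by 3.93 (S100a4), 2.83 (Ly6c2), 2.44 (Capg, an actin capping protein), 2.26 (Cd44), 2.10 (Plac8), 1.45 (Coro1a, an actin regulator) and 1.35 (Ccr2, the receptor for Ccl2). Genes of division or its histones and tubulin differed by 2.69 (Slbp), 1.4997 (Hmgb2), 1.24 (Tuba1b) and 0.69 (H2afz). Chaperones differed by 2.15 (Hsp90aa1), 0.94 (Dnaja1), 0.86 (Hsp90ab1) and 0.72 (Hspa8). The others were Btbd1 at 2.38, Fcer1g at 1.94, Lyz2 at 1.82, Ifi27l2a at 1.27 and, lower in T cells, Gpx3 at -0.96. H2afz had the adjusted p nearest the threshold, 0.0496.

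With 2 and 3 mice a group, single samples far from their group could not be examined by a rule for 4 or more.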

How the results depend on the processing

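The 4 gene calls were 4 with DESeq2 size factors or a Cd3 threshold of 1 and 2 with the DESeq2 test. They were 0 with limma, equal cells and UMIs, a Cd3 threshold of 3 or without innate-like cells, 84 with no filter on low counts, 7 without cells over 15000 UMIs and 0 to 21 with 1 mouse left out. The folds of Satb1, Gzma and Cd74 kept their direction in all 16 alternatives each, and they passed in 5, 7 and 9 of them. The share of T cells among kept cells passed with TMM factors over groups (1.28). Among immune cells its fold ran from -0.28 to 0.79 with 1 mouse left out, turning at -0.28 without mouse 2 and -0.16 without mouse 3. No class share passed under any alternative run. Genes that differed from the rest of cluster 10 numbered 7 with no filter and 0 to 68 with 1 mouse left out; those that differed from cluster 0 numbered 449 with DESeq2 size factors, 355 with no filter and 101 to 616 with 1 mouse left out. Among named genes, all far from passing, Clu turned to 0.19 without mouse 1 (lowest -3.50, without mouse 2), Gzmb to 0.11 with equal cells and 1.72 without innate-like cells, and Ccl5 to 0.32 with equal cells, 0.49 without mouse 1 (lowest -0.73, without mouse 2), 0.10 without cycling and 0.60 without innate-like cells. Cd8b1 turned to 0.16 with equal cells, 0.28 without cells of 5 or more macrophage UMIs, 0.011 without mouse 4 (lowest -0.54, without mouse 5), 0.093 without cycling and 0.11 without innate-like cells, and Trdc to -1.82 and -0.51 in the first 2 of these settings and to -0.19 without mouse 3 (highest 0.52, without mouse 1). The cause was not tested. No paired analysis was possible because each mouse was taken at 1 time only. With 23 to 105 T cells a mouse, 3026 of 32285 genes had enough counts to test.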

Other observations

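Spp1 and Clu, which injured tubule cells express, were highest in the T cells of mouse 1, while other tubule transcripts such as Kap were highest in other mice. Spp1, or osteopontin, was at 6710 CPM in its T cells against 683 to 1103 CPM in the other mice, and Clu, or clusterin, at 1657 CPM against 77.8 to 208 CPM. Of the 347 Clu UMIs of mouse 1, 285 lay in 1 cell, and of its 1405 Spp1 UMIs 724 lay in 1 cell. In cluster 5 of the same mouse Spp1 was at 6459 CPM and Clu at 1128 CPM, of whose 1342 UMIs 802 lay in 1 cell; both were above the other mice.

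The heavy chain gene Ighm had UMIs in the T cells of all 5 mice (77.8 to 185 CPM), while the light chain Igkc had 2 UMIs in 1 mouse and Cd79a and Ms4a1 had none.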
